A study of Mus musculus with 6 samples.

Results

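Smooth muscle contractile genes were examined in immortalized podocytes from wildtype (WT) mice and from mice with Alport syndrome (AS). The group held 10 genes, taken by symbol from a fixed list: Acta2, Tagln, Myl9, Cnn1, Cnn2, Tpm1, Tpm2, Myh11, Srf and Cald1. All 10 were found once in the count table of 57132 identifiers, and all 10 were among the 16263 genes that passed the filter on low counts. RNA-seq was performed on 3 samples of the WT line (IMWT, Col4a3+/+) and 3 samples of the AS line (IMAS, Col4a3-/-). Both lines came from adult male mice labelled as 8 weeks old, and neither received a treatment. Both lines were made by crossing to H-2Kb-tsA58 mice, which carry a temperature-sensitive large T antigen under an interferon-responsive promoter. They were grown at 33 °C with interferon gamma (20 U/mL in the sample records) and differentiated at 37 °C (14 days in the sample records), whereas the study's methods give a lower dose and a shorter time. There was 1 cell line per genotype, which means that genotype and line cannot be told apart, and the samples are numbered as sets whose origin as separate cultures is not stated. The p-values therefore measure only the spread between these samples, which may be technical.

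In smooth muscle, contraction follows from myosin sliding on filaments of smooth muscle actin, and calponin, caldesmon and tropomyosin sit on those filaments and tune the interaction. Many of these genes carry CArG boxes, the elements bound by serum response factor (SRF), which works with the cofactor myocardin in smooth muscle and with the actin-sensing MRTF cofactors in many other cells. Podocytes build a contractile actin apparatus in their foot processes, and smooth muscle actin is widely used as a sign of a contractile or activated cell state in the kidney.

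The total count per sample was between 45417221 and 54290968. Expression is given as CPM, counts scaled to a common depth with TMM-corrected library sizes. Differences are AS over WT. They were tested two-sided with the quasi-likelihood method of edgeR, and p-values were adjusted by Benjamini-Hochberg over all genes tested, and a gene is said to rise or fall at an adjusted p under 0.05. Col4a3, the gene targeted in the AS line, had a mean of 1087 ± 170 CPM in the 3 WT samples and of 68.8 ± 12.2 CPM in the 3 AS samples (SD), with no overlap. The labelled cell type was checked against its defining markers: Synpo, an actin-associated podocyte protein, had a mean of 803 ± 44.2 CPM in the 3 WT samples and of 526 ± 30.8 CPM in the 3 AS samples (SD). Tcf21, a podocyte transcription factor gene, had 0 counts in all 6 samples, and Nphs1, which encodes nephrin of the slit diaphragm, summed to 67 counts in the 3 WT samples and to 6 in the 3 AS samples. Wt1, another podocyte transcription factor gene, fell from 20.6 ± 5.28 to 2.51 ± 0.928 CPM (SD, n = 3 each, edgeR adjusted p = 3.57e-05). WT replicate 1 stood apart from the other WT samples in immediate early genes, which are described below.

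Of the 10 contractile genes, 7 fell (Tagln, Myl9, Cnn1, Tpm2, Myh11, Srf and Cald1), 1 rose (Cnn2), and 2 did not pass the test (Acta2 and Tpm1). Among all genes tested, 40.1% passed, 19.6% as lower and 20.4% as higher in AS podocytes. The median log2 fold change of the 10 genes was -0.53, beside 0.0061 over all genes tested. The CPM of the groups did not overlap in 8 of the 10 genes, 7 of them lower and 1 higher in AS podocytes. Among all genes tested, 52.3% did not overlap, 26.0% being lower and 26.4% higher. A decrease of at least 2-fold past the test was measured in 3 genes (Myh11, Cnn1 and Myl9), against 6.59% of all genes tested. An increase of that size was measured in 0 of the 10, against 4.59% of all genes tested. Together the 10 genes held between 2.17 and 2.59% of all counts in the WT samples and between 1.85 and 2.14% in the AS samples. The samples are bulk RNA, so fewer cells with a gene and less of its RNA per cell cannot be told apart.

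**Figure D1:**
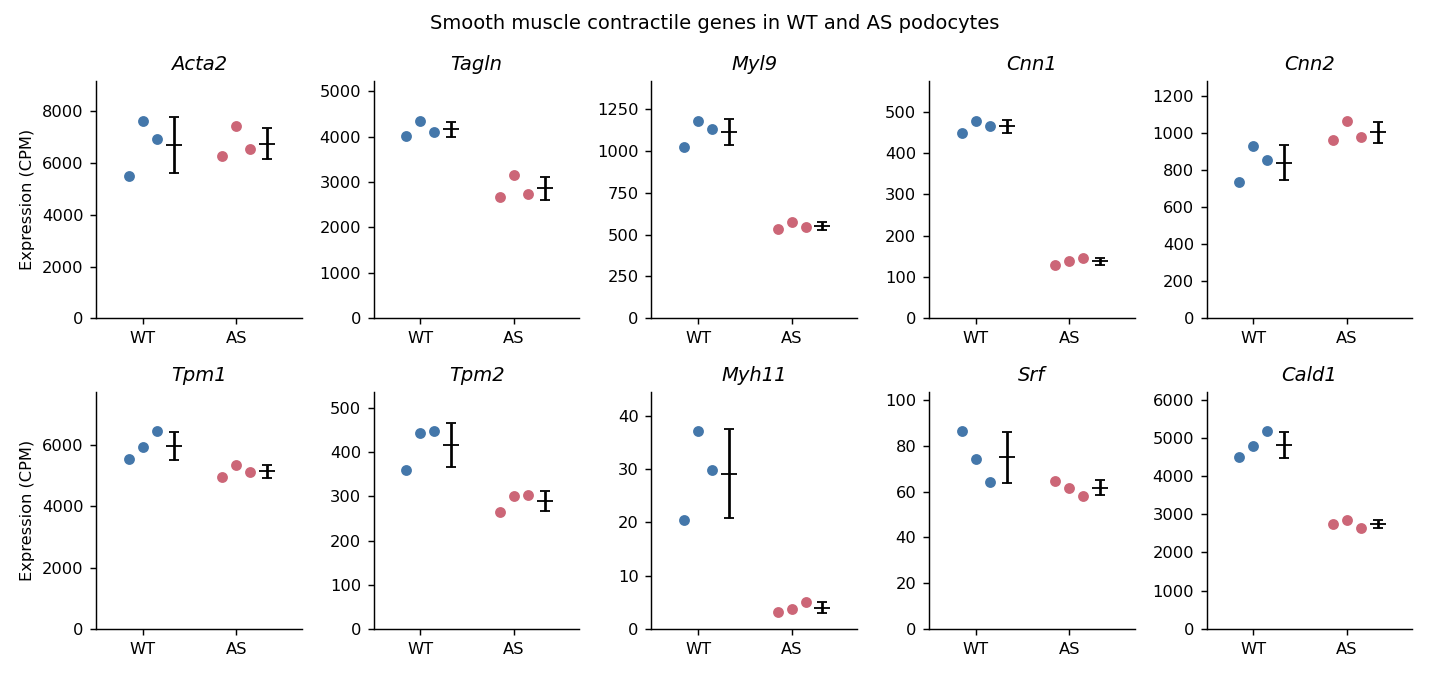
Expression of the 10 contractile genes in CPM on linear axes that start at 0, with 1 point per sample (WT blue, AS red, replicates 1 to 3 from left to right) and the mean with its SD in black. Cnn1, Myl9, Myh11, Cald1, Tagln, Tpm1 and Tpm2 lie lower in every AS sample than in any WT sample, Cnn2 lies higher, and Acta2 and Srf overlap between the groups.

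Acta2 (ENSMUSG00000035783.10, chromosome 19) encodes smooth muscle alpha actin, the thin filament protein of smooth muscle. It was at 5503, 7648 and 6952 CPM in the WT samples and at 6296, 7421 and 6561 CPM in the AS samples. The lowest and the highest value both belonged to WT samples, so that the AS values lay inside the WT range. The mean was 6701 ± 1094 CPM for the WT line and 6759 ± 588 CPM for the AS line (SD, n = 3 each). The log2 fold change was 0.012 with a 95% interval from -0.265 to 0.29 (standard error 0.12, edgeR adjusted p = 0.948), so a change past those bounds was not seen, while smaller changes in either direction are not distinguished. Its sign turned to -0.11 without WT replicate 1, the sample with the lowest Acta2, and it did not pass the test there (edgeR adjusted p = 0.277). Acta2 alone made up between 0.536 and 0.766% of all counts in the 6 samples.

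The myosin genes moved apart from the actin gene. Myh11 (ENSMUSG00000018830.11, chromosome 16) encodes the smooth muscle myosin heavy chain, a late and restrictive marker of the smooth muscle lineage. It was at 20.5, 37.1 and 29.8 CPM in the WT samples and at 3.09, 3.74 and 5.07 CPM in the AS samples. Every AS sample was below every WT sample, from 4151 counts in all WT samples and 610 in all AS samples. Myh11 fell by 2.87 on the log2 scale (standard error 0.24, edgeR adjusted p = 1.75e-05), to 0.137 times the WT level, the largest change of the 10 genes. Myl9 (ENSMUSG00000067818.7, chromosome 2) encodes the regulatory light chain whose phosphorylation switches smooth muscle myosin on. The WT samples held it at 1025, 1181 and 1128 CPM, and the AS samples at 530, 578 and 543 CPM. Here too the groups were apart, and the spread within each was small. Myl9 fell by 1.01 on the log2 scale (standard error 0.073, edgeR adjusted p = 7.51e-06), to 0.495 times the WT level.

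Of the calponin genes in the group, Cnn1 fell and Cnn2 rose. Cnn3, a calponin gene outside the group that was named after its values were seen, fell too. It went from 809 ± 65.6 to 701 ± 17.6 CPM (mean and SD, n = 3 each). Its log2 fold change was -0.21, close to the threshold (edgeR adjusted p = 0.0454). Cnn1 (ENSMUSG00000001349.6, chromosome 9) encodes the basic calponin of smooth muscle, which binds actin and restrains myosin. It was at 448, 478 and 466 CPM in the WT samples and at 128, 139 and 145 CPM in the AS samples. The WT values lay within a narrow band, as did the AS values, and the highest AS value was far below the lowest WT value. Cnn1 fell by 1.76 on the log2 scale (standard error 0.066, edgeR adjusted p = 1.06e-07), to 0.296 times the WT level. Cnn2 (ENSMUSG00000004665.11, chromosome 10) encodes the neutral calponin found in many non-muscle cells. It was at 738, 928 and 853 CPM in the WT samples and at 965, 1067 and 977 CPM in the AS samples. The highest WT sample lay close under the lowest AS sample. Cnn2 rose by 0.26 on the log2 scale (standard error 0.09, edgeR adjusted p = 0.0465). Leaving out 1 sample ended that call in 5 of 6 cases, the exception being WT replicate 2 (adjusted p = 0.163 without AS replicate 2, edgeR). The genes of chromosome 10 as a group had a median log2 fold change of 0.32, and with each chromosome's median removed the Cnn2 log2 fold change was -0.068 (edgeR adjusted p = 0.603). The part of the chromosome in the Cnn2 value was not tested otherwise.

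Tagln (ENSMUSG00000032085.6, chromosome 9) encodes transgelin or SM22, an actin-binding protein with a calponin repeat that appears early in smooth muscle. It was at 4020, 4353 and 4100 CPM in the WT samples and at 2680, 3154 and 2742 CPM in the AS samples. The groups were separated by a gap wider than the range of either. Tagln fell by 0.54 on the log2 scale (standard error 0.084, edgeR adjusted p = 0.000848), to 0.688 times the WT level. An antisense gene, Gm48529, shares 1241 exon bases with Tagln in GENCODE M21, and its own counts summed to 7503 in WT and to 5088 in AS samples. Whether reads were counted by strand is not stated, so reads of both genes may not be told apart. Tagln itself had 596718 counts in WT and 433757 in AS samples, and how many reads from the shared bases were given to either gene is not known.

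Tpm1, Tpm2 and Cald1 encode tropomyosins and caldesmon, regulatory proteins of the thin filament. These genes were lower in every AS sample than in any WT sample, and Tpm1 did not pass the test. The tropomyosin genes outside the group, Tpm3 and Tpm4, are described below. Cald1 (ENSMUSG00000029761.17, chromosome 6) encodes caldesmon, which blocks myosin binding to actin until it is released. It was at 4487, 4786 and 5170 CPM in the WT samples and at 2735, 2860 and 2650 CPM in the AS samples. Cald1 fell by 0.81 on the log2 scale (standard error 0.079, edgeR adjusted p = 5.06e-05), to 0.571 times the WT level. Tpm2 (ENSMUSG00000028464.17, chromosome 4), the gene of beta tropomyosin, was at 360, 445 and 448 CPM in the WT samples and at 265, 302 and 303 CPM in the AS samples. WT replicate 1 was the WT sample closest to the AS range. Tpm2 fell by 0.53 on the log2 scale (standard error 0.094, edgeR adjusted p = 0.00188), to 0.695 times the WT level. Tpm1 (ENSMUSG00000032366.16, chromosome 9), the gene of alpha tropomyosin, was at 5549, 5937 and 6449 CPM in the WT samples and at 4945, 5356 and 5135 CPM in the AS samples. Its log2 fold change was -0.22 (95% interval -0.401 to -0.032, standard error 0.082, edgeR adjusted p = 0.0614). Tpm1 passed with limma-voom, the method the study states (adjusted p = 0.0331), with DESeq2 (adjusted p = 0.0091), and in edgeR without WT replicate 1 (adjusted p = 0.0051). Cald1, Tpm1 and Tpm2 are spliced into muscle and non-muscle forms, and counts per gene do not show which forms changed.

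Srf (ENSMUSG00000015605.7, chromosome 17), the gene of serum response factor itself, was at 86.4, 74.3 and 64.2 CPM in the WT samples and at 64.8, 61.8 and 58.3 CPM in the AS samples. The lowest WT sample lay inside the AS range. Srf fell by 0.28 on the log2 scale (standard error 0.099, edgeR adjusted p = 0.0454), a change close to the threshold. It did not pass with limma-voom (adjusted p = 0.0511) or in edgeR with the library size as the only scaling (adjusted p = 0.0517). Leaving out 1 sample ended the Srf call in 5 of 6 cases, the exception being WT replicate 3, and the log2 fold change was -0.17 without WT replicate 1 (edgeR adjusted p = 0.0926).

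Because the members are linked through SRF, the sequence before each start site was searched for the CArG box. In this box a core of only A and T lies between CC and GG. A match on either strand is also a match on the other, although its letters need not read the same. The window was the 250 bases before the annotated start in RefSeq (GRCm38.p6), found for 8 of the 10 genes in 9 windows (Tagln and Myh11 were not analysed here). The authors' notes name mm39, so these coordinates belong to the RefSeq table and not to the counts. A CArG box lay in the windows of 3 genes, Myl9, Cnn2 and Srf, and in 1.47% of the 32851 windows of all genes in the table. A CArG-like site, with 1 core base other than A or T, lay in the windows of 2 genes, Myl9 and Acta2, and in 7.24% of all windows. The 4 windows with a site and that of Cnn1, which held neither and belongs to the gene with the smallest adjusted p, are printed 5′ to 3′ to show where the sites lie, with the sites in capitals.
Myl9 promoter, chr2:156775214-156775463, plus strand: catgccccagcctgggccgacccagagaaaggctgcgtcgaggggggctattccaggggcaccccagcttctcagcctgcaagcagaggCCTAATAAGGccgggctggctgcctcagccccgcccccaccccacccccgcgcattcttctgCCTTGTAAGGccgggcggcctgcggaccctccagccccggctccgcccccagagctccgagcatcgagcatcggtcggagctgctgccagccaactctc
Cnn2 promoter, chr10:79988350-79988599, plus strand: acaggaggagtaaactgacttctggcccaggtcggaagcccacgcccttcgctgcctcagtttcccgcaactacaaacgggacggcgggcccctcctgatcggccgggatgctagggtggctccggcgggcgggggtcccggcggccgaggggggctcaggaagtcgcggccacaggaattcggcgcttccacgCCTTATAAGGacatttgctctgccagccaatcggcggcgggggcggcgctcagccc
Srf promoter, chr17:46556163-46556412, minus strand: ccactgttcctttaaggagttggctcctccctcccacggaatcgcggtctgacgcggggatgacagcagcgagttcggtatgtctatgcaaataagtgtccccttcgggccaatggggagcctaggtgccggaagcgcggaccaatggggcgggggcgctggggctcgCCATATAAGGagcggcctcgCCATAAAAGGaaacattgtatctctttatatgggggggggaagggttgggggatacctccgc
Acta2 promoter, chr19:34255374-34255623, minus strand: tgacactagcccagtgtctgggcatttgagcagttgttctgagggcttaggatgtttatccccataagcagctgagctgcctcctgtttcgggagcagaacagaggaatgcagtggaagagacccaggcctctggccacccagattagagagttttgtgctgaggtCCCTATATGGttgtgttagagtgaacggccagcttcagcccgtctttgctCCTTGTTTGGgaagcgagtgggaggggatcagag
Cnn1 promoter, chr9:22099003-22099252, plus strand: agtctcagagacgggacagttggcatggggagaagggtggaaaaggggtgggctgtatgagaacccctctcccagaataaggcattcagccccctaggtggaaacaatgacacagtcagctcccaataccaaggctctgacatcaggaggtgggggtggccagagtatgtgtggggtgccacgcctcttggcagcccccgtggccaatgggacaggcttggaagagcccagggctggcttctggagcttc
In Myl9 the CArG box CCTAATAAGG began 161 bases before the start and the CArG-like site CCTTGTAAGG 99 bases before it. In Cnn2 the CArG box CCTTATAAGG began 56 bases before the start. Srf held a pair of CArG boxes, CCATATAAGG at 82 and CCATAAAAGG at 62 bases before the start. Acta2 held a pair of CArG-like sites, CCCTATATGG at 84 and CCTTGTTTGG at 34 bases before the start. Of the genes with a site in this window, Myl9 fell at least 2-fold and Srf fell close to the threshold. Cnn2 rose, a call that was lost with chromosome medians removed, and Acta2 did not pass the test. A match is a run of letters and not a measured binding site, and sites beyond the window were not searched.

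**Figure D2:**
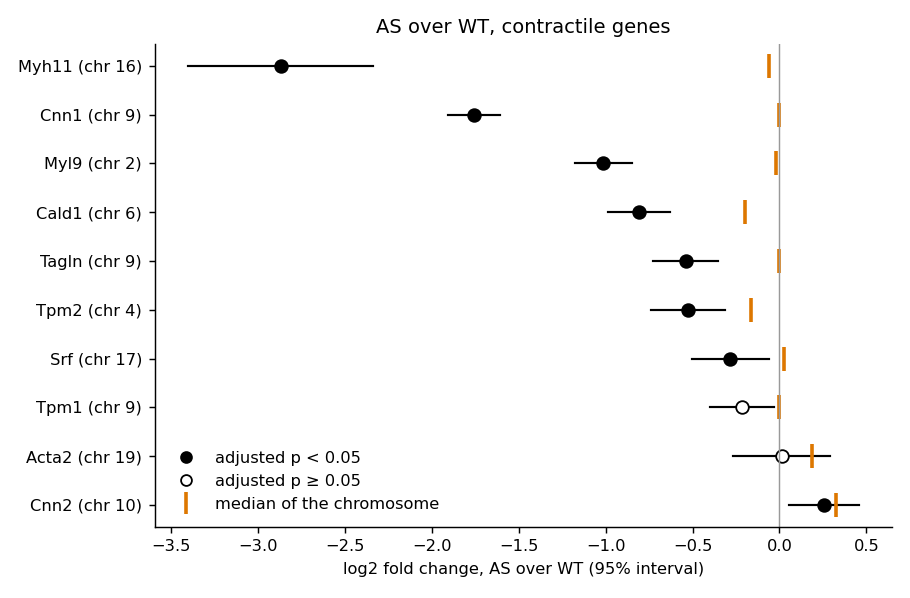
The log2 fold change of each contractile gene, AS over WT, with its 95% interval from edgeR, filled where the adjusted p was under 0.05, and the median log2 fold change of the gene's chromosome as an orange mark. The intervals of Myh11, Cnn1, Myl9, Cald1, Tagln, Tpm2, Srf and Tpm1 lie wholly below the median of their chromosome, those of Srf and Tpm1 by the least. Tpm1 did not pass the test. The intervals of Acta2 and Cnn2 hold the medians of chromosomes 19 and 10.

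Chromosomes differed between the lines as groups, with medians from -0.20 on chromosome 6 to 0.32 on chromosomes 8 and 10, over genes with a mean log2 CPM over 2. Among the contractile genes this touched Cald1 (chromosome 6, median -0.20), Tpm2 (chromosome 4, median -0.16), Acta2 (chromosome 19, median 0.19) and Cnn2. With the medians removed, Cald1 was at -0.61 and Tpm2 at -0.36 on the log2 scale and both still passed the test in edgeR, and Acta2 was at -0.18 (edgeR adjusted p = 0.305).

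Levels of different genes were compared as CPM per kilobase of the longest transcript in GENCODE M21. In WT podocytes Acta2 was highest at 3290 ± 538 CPM per kilobase (SD, n = 3), followed by Tagln at 2610 ± 109 and Tpm1 at 2070 ± 156 (SD, n = 3 each). Cald1 at 1010 ± 71.7 and Myl9 at 985 ± 70.2 came next, before Cnn2 at 341 ± 39.0, Cnn1 at 195 ± 6.38 and Tpm2 at 192 ± 22.9 CPM per kilobase (SD, n = 3 each). Srf at 28.7 ± 4.24 and Myh11 at 4.45 ± 1.27 CPM per kilobase (SD, n = 3 each) were lowest. Samples overlapped between Acta2 and Tagln, between Cald1 and Myl9, and between Cnn1 and Tpm2, so these neighbours are not ordered by the data. In AS podocytes Acta2 at 3320 ± 289 CPM per kilobase (SD, n = 3) was above Tagln at 1790 ± 161 in every sample, and Tagln overlapped with Tpm1 at 1780 ± 71.2 (SD, n = 3 each). Cnn1 at 57.7 ± 3.62 CPM per kilobase lay below Tpm2 at 133 ± 10.1 (SD, n = 3 each) in every AS sample, and Myh11 was at 0.605 ± 0.154 (SD, n = 3). With the coding length in place of the transcript length, 5 of the 10 genes kept their rank in WT podocytes, and Tagln ranked first.

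**Figure D3:**
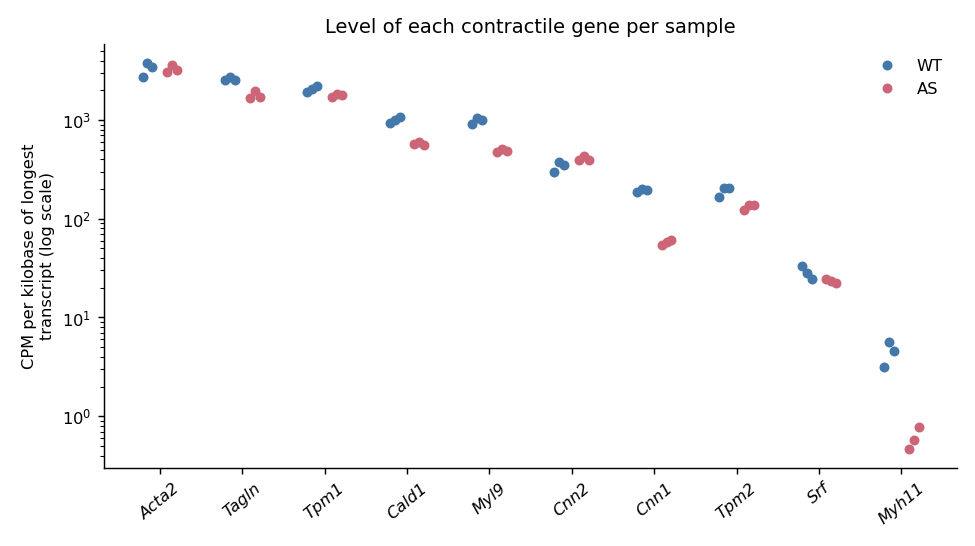
CPM per kilobase of the longest transcript on a log axis, 1 point per sample (WT blue, AS red), with genes in the order of the WT mean. Acta2, Tagln and Tpm1 lie above 1000 in all samples, whereas Myh11 lies between 3 and 6 in WT and under 1 in AS samples.

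Ratios of related genes within a sample do not depend on library scaling, and 3 pairs were compared. In the WT samples the Cnn1 counts were 0.607, 0.515 and 0.546 times the Cnn2 counts, while AS samples had 0.133, 0.13 and 0.149 times. The ratio was lower in every AS sample, with a log2 difference of -2.02. In the WT samples the Tpm2 to Tpm1 ratio was 0.0649, 0.0749 and 0.0694, while the AS samples had 0.0535, 0.0564 and 0.0591, with a log2 difference of -0.31. For both pairs the exact permutation test, two-sided, gave p = 0.10, the smallest that 3 against 3 allow, and 0.15 after adjustment over the 3 pairs. The ratio of Acta2 to Actb, the gene of cytoplasmic beta actin, stood at 1.25, 1.60 and 1.57 in WT, against 1.37, 1.43 and 1.37 in AS samples. These ranges overlapped (log2 difference -0.076, exact permutation p = 0.50, 0.50 after adjustment). The genes of each pair lie on different chromosomes, and chromosome medians were not removed from the ratios. The median log2 fold change was 0.32 on chromosome 10 (Cnn2), -0.16 on chromosome 4 (Tpm2) and -0.00074 on chromosome 9 (Cnn1 and Tpm1). The part of the chromosomes in the ratios was not tested.

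Among the cofactors and regulators of SRF, Myocd, the gene of myocardin, had 2, 3 and 2 counts in the WT samples against 0, 0 and 1 in AS samples and did not pass the filter, so that it lay near the limit of 3 counts over a group (0.0209 CPM for WT, 0.0198 CPM for AS). Mrtfa rose from 83.8 ± 4.55 to 104 ± 3.48 CPM (mean and SD, n = 3 each), which gave a log2 fold change of 0.31 (edgeR adjusted p = 0.00241). It lies on chromosome 15, and with chromosome medians removed its log2 fold change was 0.11 (edgeR adjusted p = 0.197). Mrtfb was at 79.2 ± 12.2 and 91.1 ± 10.3 CPM (mean and SD, n = 3 each), which gave a log2 fold change of 0.20 (edgeR adjusted p = 0.19). Without WT replicate 1 the log2 fold change of Mrtfb was 0.34 and passed (edgeR adjusted p = 0.00949), and it passed with no filter too (edgeR adjusted p = 0.0454). Of the 10 regulators tested out of 11, 4 rose and 1 fell, with a median log2 fold change of 0.15. The shares over all genes tested were 20.4% and 19.6%. Scai, a repressor of MRTF activity, rose by 0.39 and Elk3, a ternary complex factor, by 0.22, while Rock2, a kinase downstream of RhoA, fell by 0.23 on the log2 scale (edgeR adjusted p = 0.00906, 0.00581 and 0.0155). With chromosome medians removed Elk3, on chromosome 10, was at -0.10 (edgeR adjusted p = 0.136), and Rock2 lost the threshold without AS replicate 3 (log2 fold change -0.19, edgeR adjusted p = 0.073).

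Among the other actins, with the filter and all 6 samples, 0 of 4 tested genes passed with edgeR, DESeq2 or limma-voom. In edgeR 0 had an unadjusted p under 0.05, and 40.1% of all genes tested passed. Actb was at 4539 ± 203 and 4860 ± 293 CPM, Actg1 at 1820 ± 62.2 and 1754 ± 75.9 CPM, and Actg2, the enteric smooth muscle actin, at 46.4 ± 20.7 and 31.8 ± 1.36 CPM in WT and AS podocytes (SD, n = 3 each). Actg2 was at 23.8, 64.6 and 50.6 CPM in the WT samples, and without the low WT replicate 1 its log2 fold change moved from -0.54 to -0.86 and passed (edgeR adjusted p = 3.76e-05). It also passed with no filter (edgeR adjusted p = 0.000206). Acta1, the skeletal actin gene, moved from -0.33 to -0.67 without WT replicate 1 and passed there (edgeR adjusted p = 0.0264). Actins are near identical in sequence, and reads may be split between them in a way the sources do not state.

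The relatives of the contractile genes moved in both directions. Of 12 genes tested, 3 rose and 4 fell, beside 20.4% and 19.6% of all genes tested, with a median log2 fold change of -0.027. Myh9, the main non-muscle myosin heavy chain, rose from 2846 ± 256 to 3809 ± 171 CPM (mean and SD, n = 3 each), which gave a log2 fold change of 0.42 (edgeR adjusted p = 0.00349). Tpm4 rose by 0.54 on the log2 scale (edgeR adjusted p = 0.000797), while Tpm3 fell by 0.28 (edgeR adjusted p = 0.00466). Myh9 and Tpm4 lie on chromosomes 15 and 8, and with chromosome medians removed both were at 0.22 and did not pass (edgeR adjusted p = 0.0782 and 0.0735). Myh14, another non-muscle heavy chain, fell from 12.9 ± 1.39 to 0.671 ± 0.247 CPM (SD, n = 3 each), by 4.25 on the log2 scale (edgeR adjusted p = 9.93e-07).

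Genes that set the phosphorylation of the myosin light chain were measured as a list of 7, of which 3 rose and 3 fell. The shares over all genes tested were 20.4% and 19.6%. The median log2 fold change of the list was 0.13. Mylk, the gene of myosin light chain kinase, was at 717, 527 and 547 CPM in the WT samples and at 319, 251 and 355 CPM in the AS samples. It fell by 0.95 on the log2 scale (standard error 0.14, edgeR adjusted p = 0.000724). Ppp1r12b, a targeting subunit of myosin phosphatase, fell by 1.12 (edgeR adjusted p = 9.42e-06). Dapk3, a kinase that acts on the light chain and its phosphatase, rose by 0.55 and Ppp1r14b, a phosphatase inhibitor, by 0.47 (edgeR adjusted p = 0.000174 and 0.000486). With chromosome medians removed both still passed, at 0.23 for Dapk3 on chromosome 10 and 0.28 for Ppp1r14b on chromosome 19 (edgeR adjusted p = 0.0242 and 0.00992). Ppp1r14a, the smooth muscle phosphatase inhibitor, named after its values were seen, fell from 2.13 ± 0.555 to 0.583 ± 0.19 CPM (SD, n = 3 each, edgeR adjusted p = 0.00145).

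Other genes of the smooth muscle cell formed a list of 17, of which 16 were tested, and 2 rose and 7 fell, with a median log2 fold change of -0.35. Lmod1, a leiomodin that nucleates actin filaments, was at 254 ± 19.3 in WT and 131 ± 3.98 CPM in AS podocytes (SD, n = 3 each), a fall of 0.95 on the log2 scale (edgeR adjusted p = 6.51e-06). Csrp1, a LIM protein of smooth muscle, fell by 0.95, Synpo2, a partner of actin and alpha-actinin, by 0.91, and Smtn, the gene of smoothelin, by 0.61 on the log2 scale (edgeR adjusted p up to 7.77e-05). Kcnmb1, a potassium channel subunit of smooth muscle, was higher in AS podocytes (1.26 ± 0.409 CPM in WT, 5.29 ± 0.00396 CPM in AS, SD, n = 3 each). Aoc3, an amine oxidase, was higher too, going from 0.106 ± 0.0453 to 0.329 ± 0.104 CPM (SD, n = 3 each). The edgeR adjusted p was 0.000112 for Kcnmb1 and 0.0332 for Aoc3. Aoc3 had few counts, with 3, 7 and 5 for WT against 16, 11 and 23 for AS. Only its AS counts reached the filter's minimum count of 10. Aoc3 entered the test through its higher group, so its call as higher is not independent of the filter. Kcnmb1 and Aoc3 were named after their values were seen. Pln, the gene of phospholamban, had 0 counts in all 6 samples. Groups did not overlap in 11 of the 16, 8 of them lower in AS podocytes. Over all genes tested, 20.4% rose and 19.6% fell, and 52.3% did not overlap, 26.0% being lower.

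The cytoskeletal targets attributed to MRTF and SRF did not move as 1 group. Of 14 tested, 4 rose and 4 fell, beside 20.4% and 19.6% of all genes tested, with a median log2 fold change of -0.046. Itga5, the fibronectin receptor subunit, rose by 0.73 and Filip1l by 0.59, while Ankrd1 fell by 0.65 and Tln1, the gene of talin, by 0.32 on the log2 scale (edgeR adjusted p = 3.12e-05, 0.00231, 0.000707 and 0.00287). With chromosome medians removed, Tln1 did not pass (log2 fold change -0.16, edgeR adjusted p = 0.0804).

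**Figure D4:**
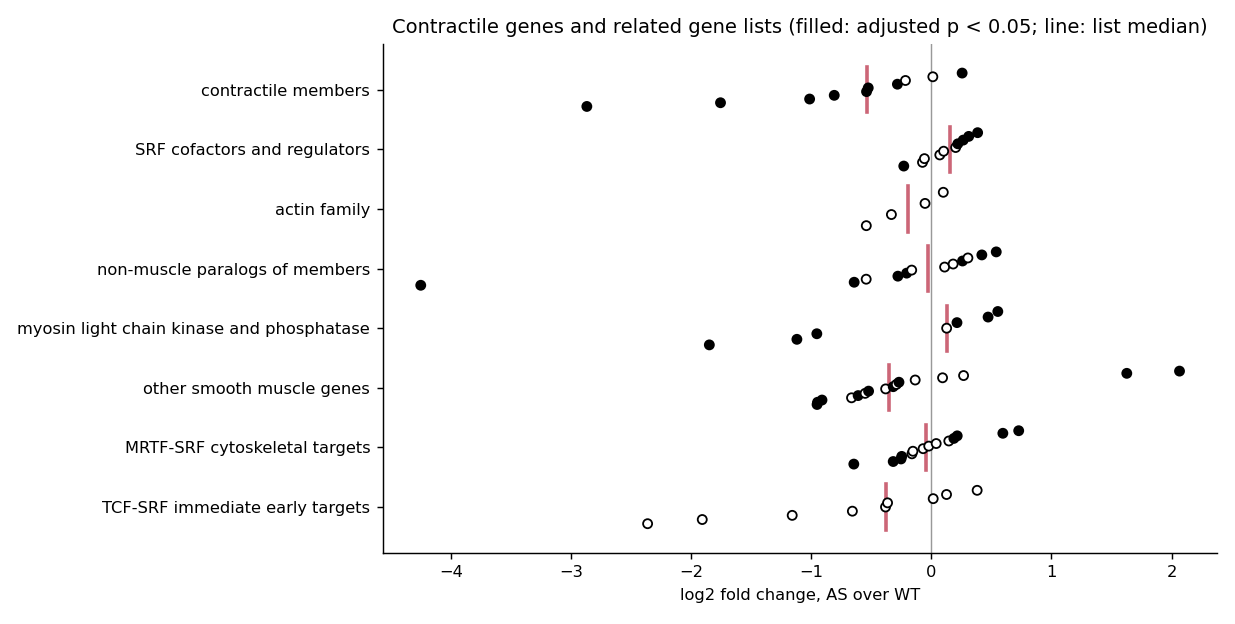
The log2 fold change, AS over WT, of each tested gene in the contractile group and in 7 related lists, filled where the edgeR adjusted p was under 0.05, with the list's median as a red line. The contractile genes have a median of -0.53, the other smooth muscle genes of -0.35, and the MRTF-SRF cytoskeletal targets of -0.046.

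The immediate early genes, which SRF drives together with ternary complex factors within minutes of a stimulus, varied widely between samples of the same line. With the filter and all 6 samples, 0 of the 9 passed with edgeR or limma-voom, while 40.1% of all genes tested passed with edgeR. In edgeR 0 of the 9 had an unadjusted p under 0.05. DESeq2 called 0 but gave no adjusted p for Nr4a1 and Egr3. In edgeR with no filter, Nr4a1, Egr3, Fosb and Fos passed as lower (adjusted p = 3.37e-06, 0.0003, 0.000814 and 0.0251), and Fos passed without WT replicate 3 (adjusted p = 0.0472). Without WT replicate 1 the log2 fold changes of these 4 genes were above 0, and none of the 4 passed in edgeR. Nr4a1 was at 233, 9.40 and 3.62 CPM in the WT samples and at 31.7, 11.5 and 5.09 CPM in the AS samples. Egr3 was at 47.4, 1.60 and 0.802 CPM in the WT samples and at 10.1, 2.34 and 1.15 CPM in the AS samples. In both genes the sample numbered 1 was the highest of its line, and WT replicate 1 stood far above the rest. The summed level of the 9 genes ran from 659 to 2030 CPM in the WT and from 777 to 1267 CPM in the AS samples. WT replicate 1 was also the highest in Srf and the lowest WT sample in the other 9 contractile genes, and AS replicate 1 was the lowest AS sample in 8 of the 10. The part of the immediate early response in these values was not tested.

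**Figure D5:**
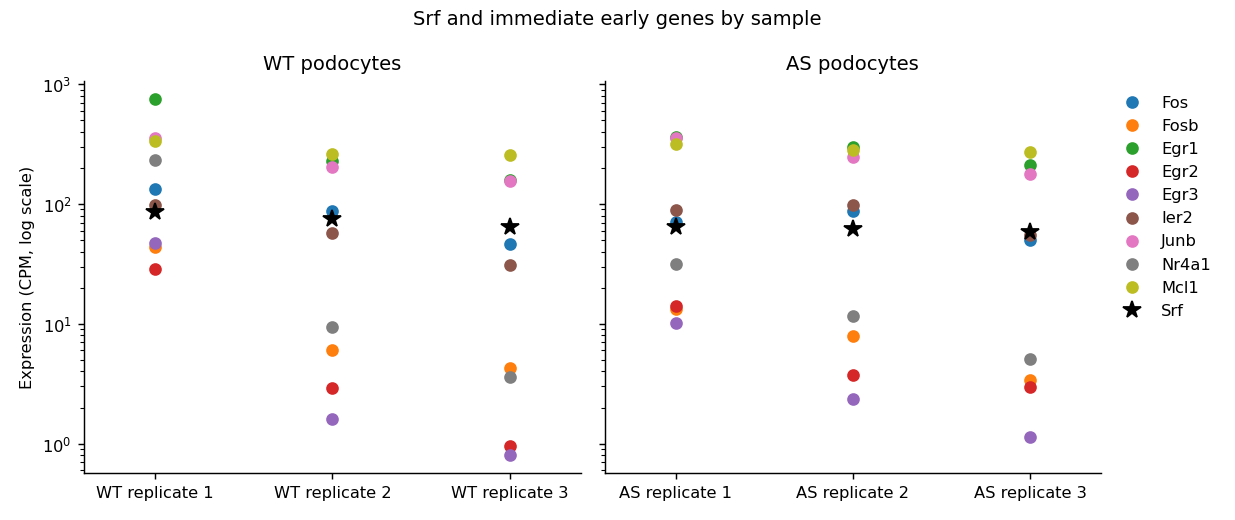
CPM on a log axis of Srf (stars) and 9 immediate early genes (points) in each WT and AS sample. WT replicate 1 holds the highest Nr4a1 (233 CPM), Egr3 (47.4 CPM) and Srf (86.4 CPM) of the 6 samples.

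Markers of other cell types were measured beside the contractile genes, and their part in the differences was not tested. The counts below stand beside 40.1% of all genes tested that passed, 20.4% as higher and 19.6% as lower. Of the mesangial cell and pericyte markers, 3 of 6 tested passed, and the summed level of the 7 listed ran from 266 to 287 CPM in WT podocytes and from 133 to 137 CPM in AS podocytes, mostly Pdgfrb, with a median log2 fold change of -0.056 over the tested genes. Pdgfrb, the receptor that marks both cell types, fell by 1.12 and Cspg4 fell by 4.54, while Rgs5 rose by 1.61 on the log2 scale (edgeR adjusted p = 8.71e-07, 1.82e-05 and 0.000129). Of the 4 fibroblast markers tested, 3 were higher in AS podocytes. Pdgfra was lower without overlap but did not pass (log2 fold change -0.76, edgeR adjusted p = 0.128). The sum of the fibroblast list ran from 30.1 to 39.1 CPM in WT podocytes and from 587 to 828 CPM in AS podocytes, mostly Col1a1 and Col3a1. Lum, a defining fibroblast marker, had 0 counts in all 6 samples. The parietal epithelial list summed to between 643 and 672 CPM in WT podocytes and between 503 and 533 CPM in AS podocytes. Of its 5 tested genes, 3 were lower in AS podocytes (Pax2, Cd44 and Krt18). Krt18 had few counts, with 13, 16 and 13 for WT against 0, 3 and 0 for AS. Only its WT counts reached the filter's minimum count of 10. Krt18 entered the test through its higher group, so its call as lower is not independent of the filter. In the tubular list 1 of 3 tested passed, Aqp1 (Umod, a defining marker, was at 0), which fell by 0.72 on the log2 scale (edgeR adjusted p = 0.00432), with sums from 373 to 419 CPM in WT podocytes and from 275 to 387 CPM in AS podocytes. Endothelial markers summed to at most 1.35 CPM and leukocyte markers to at most 3.14 CPM in any sample, with Adgre1 and Cd3e at 0. Of these, the 1 endothelial gene tested, Kdr, passed as lower in AS podocytes (edgeR adjusted p = 0.0441), but its groups overlapped and the call was lost without WT replicate 2 or 3 or AS replicate 1 or 3 (edgeR adjusted p = 0.167, 0.0957, 0.117 and 0.132), and 0 of 2 leukocyte genes passed with edgeR, DESeq2 or limma-voom or had an unadjusted p under 0.05 in edgeR. The list of skeletal and cardiac muscle genes summed to at most 16.8 CPM, and 0 of its 2 tested genes passed with edgeR, DESeq2 or limma-voom or had an unadjusted p under 0.05 in edgeR.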

How the data were processed

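Polyadenylated RNA was sequenced from 3 samples of each podocyte line. The authors deposited raw counts of reads per gene, without normalization. The submitters' processing notes name FastQC, Trim Galore, STAR, edgeR and mm39. For the counting tool, its strand setting and the annotation release, nothing is stated in the sources used here. Library PCR ran for 15 cycles. Of 57132 identifiers, 51880 matched GENCODE M21 (GRCm38) without the version, and that annotation gave symbols, chromosomes and lengths only.

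The analysis used edgeR 4.0.16 under R 4.3.3, with filterByExpr (minimum count 10, total 15), TMM and a quasi-likelihood fit on genotype alone. As standard error was taken the log2 fold change over the square root of F. limma-voom (limma 3.58.1), which the study's supplement names, DESeq2 1.42.0, other scalings and filters, a replicate block, removal of chromosome medians and each sample left out in turn were alternatives. The test was tested on simulated data, and its limit on recovery was narrowed to genes at 4 CPM or more after it failed over all genes. No pair of samples of a genotype agreed within sampling noise (chi-square per degree of freedom from 9.83 to 49.97). Limits from counts reflect counting error only, because PCR copies were not marked by molecular identifiers.

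The genes and lists were chosen with earlier results of these data known. Named were the 10 contractile genes, Col4a3, Mrtfa, Mrtfb, Myocd, Actb, podocyte genes and, from the 7 related lists and the marker lists, at most 4 genes each with the smallest adjusted p, with a few per-sample values of these. From the marker lists, only genes past the test or with 0 counts were named, a limit set after their values were seen. Pdgfra and Lrp2 were exceptions, also named after their values were seen. Some items, and the podocyte list as a whole, are not reported here. RefSeq proteins were not used here, so coding lengths came from GENCODE M21.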

Additional observations from a re-analysis of the deposited data

How the results depend on the processing

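Tagln, Myl9, Cnn1, Tpm2, Myh11 and Cald1 stayed lower at an adjusted p under 0.05 in all 14 alternatives, with adjusted p up to 0.0155. Of the 140 values over the 10 genes, 117 kept direction and side of the threshold, 14 lost the threshold (Cnn2 and Srf), 5 gained it (Tpm1) and 4 were reversed. The number of members called was 8 and ran from 6 to 9. The number called higher was 1 (Cnn2) and was 0 with RLE size factors, with a mean CPM of at least 1 and with chromosome medians removed (edgeR, with 1, 1 and 0 members higher at an unadjusted p under 0.05), and from 0 to 1 with each sample left out. DESeq2 and limma-voom each called 1 higher. The median log2 fold change of the members lay between -0.593 and -0.488 when 1 sample was omitted and was -0.452 with chromosome medians removed, and 6517 called genes ran from 5120 to 7066 over all alternatives.

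With chromosome medians removed, the log2 fold change was -0.18 for Acta2, -0.068 for Cnn2, -0.10 for Actb and -0.10 for Elk3, each of opposite sign and none past the threshold. The Elk3 call was thus lost. With each sample left out, Acta2 ran from -0.11 to 0.12 (-0.065 without AS replicate 2) and Acta1 from -0.67 to 0.098. Nr4a1 ran from -3.32 to 1.29, Egr3 from -3.27 to 1.89, Fosb from -1.69 to 0.65 and Fos from -0.68 to 0.044, where the positive value of each came without WT replicate 1. The log2 ratio differences ran from -2.08 to -1.95 for Cnn1 to Cnn2, from -0.36 to -0.25 for Tpm2 to Tpm1 and from -0.19 to -0.010 for Acta2 to Actb. With the coding length, 5 of 10 WT ranks were kept. The cause was not tested in these cases.

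Samples with the same number had deviations that correlated at 0.147, 0.0939 and 0.0527, against -0.13 to 0.0571 for different numbers, and WT replicate 3 correlated best with AS replicate 2 by a narrow margin. All 3 same-number values were positive but only 1 was over 0.1, the limit set for pairing, so the number was not taken as a pairing, and a shared source of same-numbered samples was not tested otherwise. With the replicate block, 9 members and 7066 genes passed, the added member being Tpm1 (log2 fold change -0.21, edgeR adjusted p = 0.0322), and Mrtfb passed too (edgeR adjusted p = 0.0269). Depth limits Myocd, Nphs1 and other genes near 0 counts.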
